A study of Mus musculus with 12 samples.

Results

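The 10 genes described here encode receptors of the tumour necrosis factor (TNF) receptor superfamily: Tnfrsf1a, Tnfrsf1b, Tnfrsf4, Tnfrsf9, Tnfrsf14, Tnfrsf18, Tnfrsf25, Cd27, Fas and Ltbr. They were picked by name, and all 10 were found among the 20731 genes joined over every library. The cells were regulatory T cells (Treg) of mice in which ligation of the inferior vena cava had produced a venous thrombus, and their RNA was sequenced in bulk from full-length cDNA. Groups were Treg of the thrombus, Treg of the vein wall around it and Treg of the spleen, taken on day 14, with 4 libraries each. All 3 groups came from ligated DEREG mice on C57BL/6 (line 23.2Spar/Mmjax of the Foxp3-DTR/EGFP transgene), so no spleen of an animal without a thrombus was among them. DEREG mice carry a bacterial artificial chromosome on which the Foxp3 promoter drives a diphtheria toxin receptor fused to EGFP, so the sort followed the transgene and not Foxp3 protein itself. Per the labels the sorted cells were positive for CD45, CD4, EGFP and CD69, an early activation marker. The labels do not say whether a library came from 1 mouse or several, so the p-values measure the spread between samples, which may be technical in part.

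Receptors of this superfamily bind trimeric ligands on neighbouring cells. Most recruit TRAF adaptors and switch on NF-kB, while those with a death domain, here Fas, TNFR1 and DR3, can also start apoptosis. Treg are known for high surface levels of GITR and OX40 and for TNFR2, and activated Treg also display 4-1BB; signals through these receptors can expand Treg or weaken their suppression, depending on the setting.

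Libraries held between 9719151 and 55386086 exon reads. Spleen 3 and 4, and vein wall 3 and 4, were near-duplicates and were summed (named spleen 3-4 and vein wall 3-4 here), which left 4 thrombus, 3 vein wall and 3 spleen samples. The deposited files fell into 3 sets with different gene models: set 1 held thrombus 1 and spleen 1, set 2 held thrombus 2, vein wall 1 and spleen 2, and set 3 held the rest. All 8 Treg and T cell markers checked, Foxp3, Il2ra, Ctla4, Ikzf2, Cd4, Cd3e, Ptprc and Cd69, had reads in every sample, and their summed level was 4510 to 6190 CPM (exon reads scaled to the library size) in thrombus, 4890 to 6700 CPM in vein wall and 4470 to 6060 CPM in spleen. That sum includes Cd3e and Ptprc, which are not particular to Treg, and single markers were less alike. In thrombus, vein wall and spleen, Foxp3 had 276.6 to 709.6, 355.9 to 486.7 and 402.7 to 678 CPM. Il2ra had 205.1 to 532.2, 357 to 397.4 and 164.8 to 259.3 CPM, and Ctla4 832.9 to 1440, 878.6 to 1235 and 525.3 to 778.9 CPM. Thrombus 2 and vein wall 1 stood apart from the other samples, with 11000 and 12000 CPM over 11 dendritic cell markers against 1170 to 2930 CPM elsewhere. That list includes the MHC class II presentation genes H2-Ab1, H2-Aa and Cd74, which are not particular to dendritic cells. The same 2 samples had the highest sums over 7 B and plasma cell markers, at 948 and 1280 CPM against 159 to 464 CPM elsewhere. Over 10 macrophage and monocyte markers they had 1760 and 268 CPM, against 23.8 to 205 CPM elsewhere. The sum over 9 fibroblast markers was 9.46 to 18.9 CPM in thrombus and 15.9 to 60.1 CPM in vein wall, against at most 0.455 CPM in spleen, where Col1a2, Col3a1, Pdgfra, Pdgfrb and Fbn1 had no read.

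By tissue means the receptors stood in the same order in Treg of thrombus, vein wall and spleen, with exceptions in single samples. Per length, that is in RPKM (reads per kilobase of exon, scaled to the library size), Tnfrsf4 came first and Tnfrsf18 second among the members in each of the 10 samples, Tnfrsf9 and Cd27 shared ranks 3 and 4, and Tnfrsf1a, Tnfrsf14 and Ltbr closed the order. Tnfrsf4, which encodes OX40, averaged 3140 ± 955 RPKM in thrombus (SD, n = 4), 4210 ± 1350 RPKM in vein wall (SD, n = 3) and 2760 ± 1110 RPKM in spleen (SD, n = 3). Among all genes with reads it ranked between 6 and 20 per sample. Its exon length was 1365, 1279 and 1030 bases in the models of sets 1, 2 and 3, and vein wall held no set 1 sample. Tissue means of Tnfrsf4 in RPKM thus depend on the gene models as well as on reads. Tnfrsf18, which encodes GITR, averaged 1630 ± 525 RPKM in thrombus, 1870 ± 287 RPKM in vein wall and 1540 ± 639 RPKM in spleen, and ranked between 27 and 51 among all genes. Together these 2 receptors made up 77.6% to 87.4% of the members' summed RPKM in thrombus samples, 83.3% to 88.6% in vein wall samples and 75.7% to 84.3% in spleen samples.

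Below them, Tnfrsf9 averaged 374, 373 and 399 RPKM and Cd27 289, 347 and 371 RPKM in thrombus, vein wall and spleen. The ranges of Tnfrsf9 and Cd27 overlapped in vein wall and spleen but not in thrombus, where the lowest Tnfrsf9 sample (341 RPKM) lay above the highest Cd27 sample (319 RPKM). Fas followed at 74.8, 94.2 and 78.5 RPKM, Tnfrsf1b at 71.5, 49.5 and 59.9 RPKM and Tnfrsf25 at 42.3, 45.7 and 29.6 RPKM, in the same tissue order. Neighbours among these 3 overlapped in their sample ranges, except Fas over Tnfrsf1b in vein wall. In single samples Tnfrsf1b ranked above Fas in 3 of 4 thrombus, 0 of 3 vein wall and 2 of 3 spleen samples, and the Fas mean of thrombus rested on thrombus 2, at 127.5 RPKM. Tnfrsf1a averaged 6.22, 9.64 and 7.68 RPKM, Tnfrsf14 1.33, 3.04 and 2.79 RPKM and Ltbr 0.310, 0.154 and 0.119 RPKM. At the top, Tnfrsf4 and Tnfrsf18 did not overlap in vein wall but did so in thrombus and spleen, where the samples of set 1 were low in both. With only reads that the authors counted as unique, Cd27 took rank 7 in thrombus and rank 6 in vein wall and spleen instead of rank 4, since genes on the opposite strand overlap it and these libraries do not mark strand. Tnfrsf18 and Tnfrsf9 kept ranks 2 and 3 by unique reads, at lower means. These were 735, 823 and 889 RPKM for Tnfrsf18 and 163, 171 and 204 RPKM for Tnfrsf9 in thrombus, vein wall and spleen. Only 16.1% to 21.3% of Tnfrsf9 reads were unique in sets 1 and 3, against 100% in set 2. Its unique mean in thrombus thus leaned on thrombus 2, and its place above Cd27 in total reads shares this limit.

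**Figure D1:**
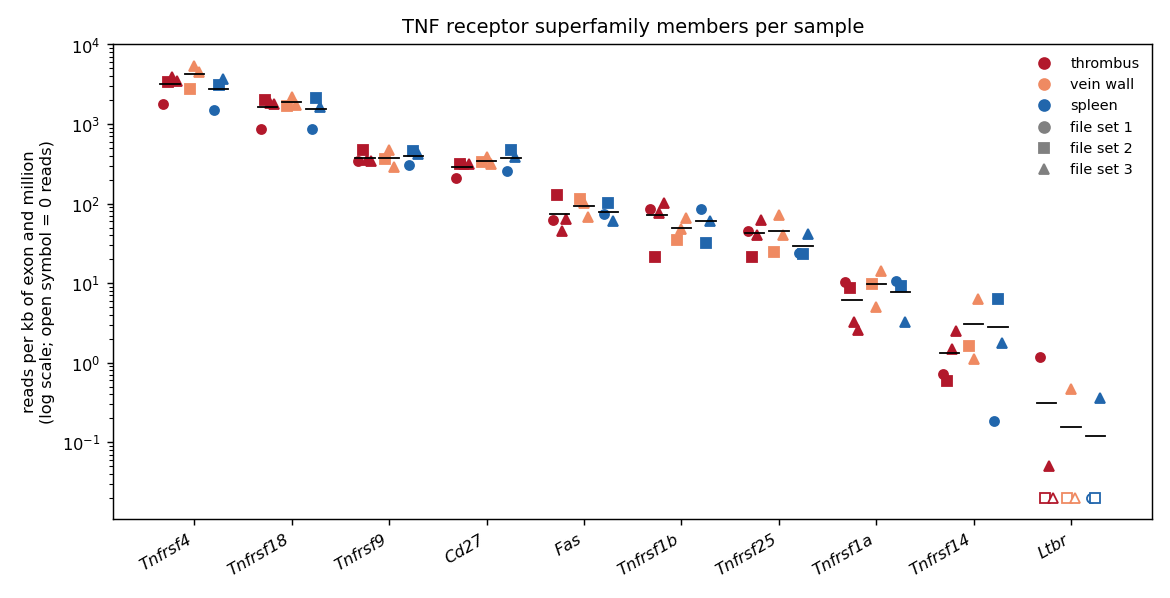
Level per length of the 10 receptors in each sample, in RPKM on a log axis. Points are samples, coloured by tissue and shaped by file set, black lines are tissue means, and open symbols at the bottom are samples of Ltbr with 0 reads; the tissue means fall in the same order from Tnfrsf4 to Ltbr, while single samples differ, as for Fas and Tnfrsf1b.

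No receptor was called between tissues by the test used, and hardly any gene was, so 0 of 10 is near the share of all genes. With edgeR's quasi-likelihood test on exon reads and Benjamini-Hochberg adjustment over 11621 genes, 0 of 10 members passed an adjusted p of 0.05 for thrombus against spleen, where 0.146% of all genes tested passed. The count was also 0 of 10 for vein wall against spleen, with 0.112% of all genes, and 0 of 10 for thrombus against vein wall, with 0.0% of all genes. At an unadjusted p under 0.05 the members still gave 0, against 483, 632 and 339 of all genes tested. A fit with file set as a covariate called 0 members in each comparison as well, where 0.456%, 0.413% and 0.0% of all genes passed. DESeq2 also called 0 members, and its counts over all genes are given in the closing section. With 12 separate libraries and the replicate number as a block, 0.455% and 0.569% of all genes passed for thrombus and vein wall over spleen, and again 0 members. The members' median log2 fold change was -0.00 for thrombus over spleen, 0.24 for vein wall over spleen and -0.16 for thrombus over vein wall, beside 0.03, -0.01 and 0.04 for all genes.

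The intervals limit the size of a change for some members only. The 95% interval of the fold change lay within 2-fold either way for 4, 3 and 4 of the 10 members in the 3 comparisons, and for 6, 5 and 7 members once file set was a covariate. With that covariate the thrombus over spleen interval ran between -0.29 and 0.47 on the log2 scale for Tnfrsf4, between -0.37 and 0.39 for Tnfrsf18 and between -0.52 and 0.34 for Tnfrsf9. For Tnfrsf14 and Ltbr the intervals spanned several log2 units, and no difference was detectable at their read numbers.

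**Figure D2:**
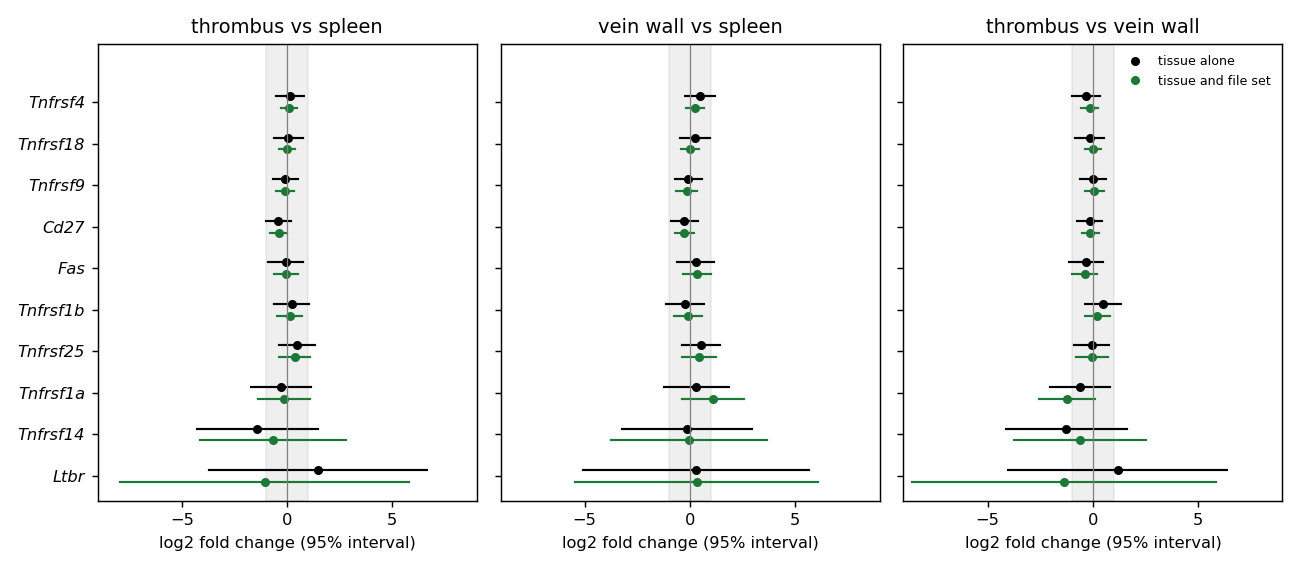
Log2 fold change of each receptor with its 95% interval for thrombus over spleen, vein wall over spleen and thrombus over vein wall. Black points are the fit with tissue alone and green points the fit with tissue and file set; the grey band is 2-fold either way, and every interval includes 0.

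Tnfrsf4 and Tnfrsf18 encode receptors that costimulate T cells and lie next to each other on mouse chromosome 4 in GRCm38, at chr4:156013843-156016612 and chr4:156026164-156028895, both on the plus strand, with 9551 bases and no other joined gene between them. Exon reads of Tnfrsf4 were 2404, 4306, 4075 and 3588 CPM in thrombus 1 to 4, 3529, 5588 and 4576 CPM in vein wall 1, 2 and 3-4, and 2060, 4010 and 3738 CPM in spleen 1, 2 and 3-4. Groups overlapped; the 2 highest samples were vein wall, and the 2 samples of set 1 were the lowest of their tissues. The fitted log2 fold change was 0.14 ± 0.32 (SE) for thrombus over spleen and 0.48 ± 0.34 for vein wall over spleen (edgeR adjusted p = 1.0 and 0.961). Exon reads of Tnfrsf18 were 1305, 2563, 2324 and 2235 CPM in thrombus, 2101, 2771 and 2199 CPM in vein wall and 1321, 2693 and 2053 CPM in spleen. Again the samples of set 1 were lowest and the tissues overlapped, with log2 fold changes of 0.06 ± 0.32 and 0.22 ± 0.34 (adjusted p = 1.0 and 0.981). In sets 1 and 3 only 19.4% to 22.5% of the Tnfrsf18 reads were unique, since Gm16008 overlaps it on the other strand, so part of its level could belong to that gene.

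The 2 neighbours tended to be high in the same samples, although set 1, low in both, forms a group of its own. Over the other 8 samples Pearson's r of log2 CPM was 0.672 (exact permutation p = 0.0602) and Spearman's rho 0.595 (exact permutation p = 0.132). Of the 28 pairs among the 8 members with a mean of at least 10 CPM, the one pair that moved in opposite directions at an adjusted p under 0.05 was Tnfrsf1b and Fas. Their Pearson's r over 10 samples was -0.836 (permutation p = 0.00304, adjusted 0.0426) and Spearman's rho -0.721 (permutation p = 0.0232, adjusted 0.324), and r was -0.796 without the 2 samples of most extreme Tnfrsf1b. That relation was weaker within the file sets: r was -0.58 after subtracting each set's mean, and -0.481 over the 7 samples outside set 2 (exact permutation p = 0.264), since the set 2 samples were among those with low Tnfrsf1b and high Fas.

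**Figure D3:**
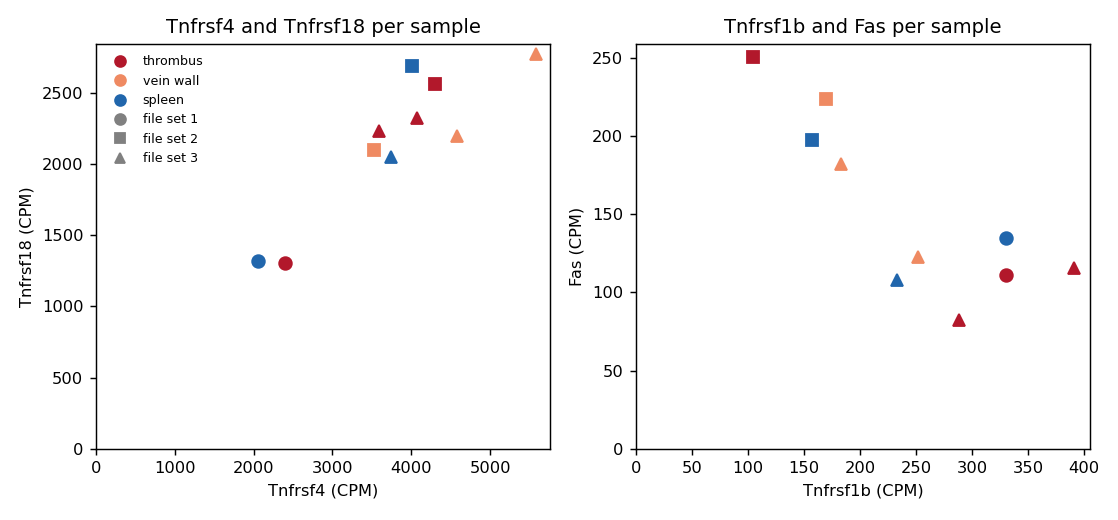
Exon reads (CPM) of Tnfrsf18 against Tnfrsf4 (left) and of Fas against Tnfrsf1b (right), 1 point per sample, coloured by tissue and shaped by file set. The 2 circles at the lower left of the first panel are thrombus 1 and spleen 1, and the squares at the upper left of the second panel are the 3 samples of set 2.

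RefSeq's promoter windows of GRCm38.p6, which run 250 bases before to 50 bases after each start site, were matched by symbol for all 10 members. Those of the 2 neighbours are shown because their reads tended to be high in the same samples. The Tnfrsf4 window lies at chr4:156013445-156013744 and the Tnfrsf18 window at chr4:156026072-156026371, both on the plus strand, and capitals would mark a match to the 10-base NF-kB consensus or to the AP-1 motif TGANTCA, searched on both strands.
Tnfrsf4: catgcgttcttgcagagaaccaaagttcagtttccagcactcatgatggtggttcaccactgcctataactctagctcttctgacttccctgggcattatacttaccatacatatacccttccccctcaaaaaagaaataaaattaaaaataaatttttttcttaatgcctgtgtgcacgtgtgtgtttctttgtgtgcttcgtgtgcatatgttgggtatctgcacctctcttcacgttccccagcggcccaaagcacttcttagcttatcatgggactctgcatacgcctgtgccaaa
Tnfrsf18: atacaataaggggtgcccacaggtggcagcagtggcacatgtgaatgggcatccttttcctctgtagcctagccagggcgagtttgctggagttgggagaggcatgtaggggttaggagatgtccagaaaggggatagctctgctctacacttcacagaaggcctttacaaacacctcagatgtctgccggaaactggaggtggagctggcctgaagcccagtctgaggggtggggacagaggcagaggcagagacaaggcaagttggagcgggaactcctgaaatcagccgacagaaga
Neither window held either motif in these letters. Of all 32851 windows, 8.46% held the NF-kB consensus and 7.81% the AP-1 motif.

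Tnfrsf9 encodes 4-1BB, a costimulatory receptor induced when T cells are activated through their antigen receptor. Its exon reads were 927.2, 1092, 947 and 926.2 CPM in thrombus, 857, 1266 and 780.7 CPM in vein wall and 840.6, 1090 and 1152 CPM in spleen. The 3 tissues overlapped throughout, with log2 fold changes of -0.08 ± 0.29 (SE) for thrombus and -0.09 ± 0.31 for vein wall over spleen (edgeR adjusted p = 1.0 and 0.994). Reads in its introns differed in pattern. They were 1040, 2175, 1372 and 1385 CPM of all intron reads in thrombus, 1569, 3080 and 1588 CPM in vein wall, and 655.3, 768.5 and 594.6 CPM in spleen. Each thrombus and each vein wall sample thus lay above each spleen sample, which also held for 3.63% and 6.61% of the 11748 genes tested by intron reads. Within the file sets the log2 difference between thrombus and spleen was 0.666, 1.501 and 1.213 in sets 1, 2 and 3, and that between vein wall and spleen 1.03 and 1.973 in sets 2 and 3.

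The intron test was added after these values had been seen. Fitted log2 fold changes of Tnfrsf9 intron reads were 1.15 ± 0.35 (SE) for thrombus over spleen and 1.63 ± 0.37 for vein wall over spleen. With edgeR's quasi-likelihood test the unadjusted p was 0.00498 and 0.000564, but neither passed adjustment (adjusted p = 0.774 and 0.51), and 0 of 9 members were called, where 0.00851% of all genes passed in each comparison. With file set as covariate 0 of 9 members were called too, beside 0.00851% and 0.0511% of all genes, and the adjusted p of Tnfrsf9 was 0.505 and 0.292. With 12 separate libraries and the replicate number as a block, vein wall over spleen passed (adjusted p = 0.0199) and thrombus over spleen did not (adjusted p = 0.0939). That fit counts the near-duplicate libraries separately, and its block is a shared number that was not shown to be a pairing. The share of Tnfrsf9 reads that fell in introns was 14.8% to 24.4% in thrombus and 18.3% to 25.2% in vein wall, against 5.99% to 12.6% in spleen. Over all genes that share was 8.86% to 16.9% in thrombus and 10.2% to 13.2% in vein wall, against 11.7% to 18.8% in spleen; the part of the whole library's intron share in the result was not tested. The change of Tnfrsf9 introns relative to its exons was 1.34 ± 0.48 and 1.71 ± 0.52 on the log2 scale, with adjusted p of 1.0 and 0.999 in edgeR.

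Another gene lies over Tnfrsf9 in the Ensembl models of sets 1 and 3: Camta1, on the opposite strand. Because strand was not kept, only 16.1% to 21.3% of Tnfrsf9 exon reads were unique in those sets, while in set 2, whose model of Tnfrsf9 has no overlap, all of them were. Intron reads of Camta1 were 746.4, 114.3, 344.5 and 296.3 CPM in thrombus, 53.71, 342.8 and 320.2 CPM in vein wall and 739.3, 120.4 and 267.6 CPM in spleen. Those tissues overlapped; the part of Camta1 in the Tnfrsf9 intron reads was not tested.

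**Figure D4:**
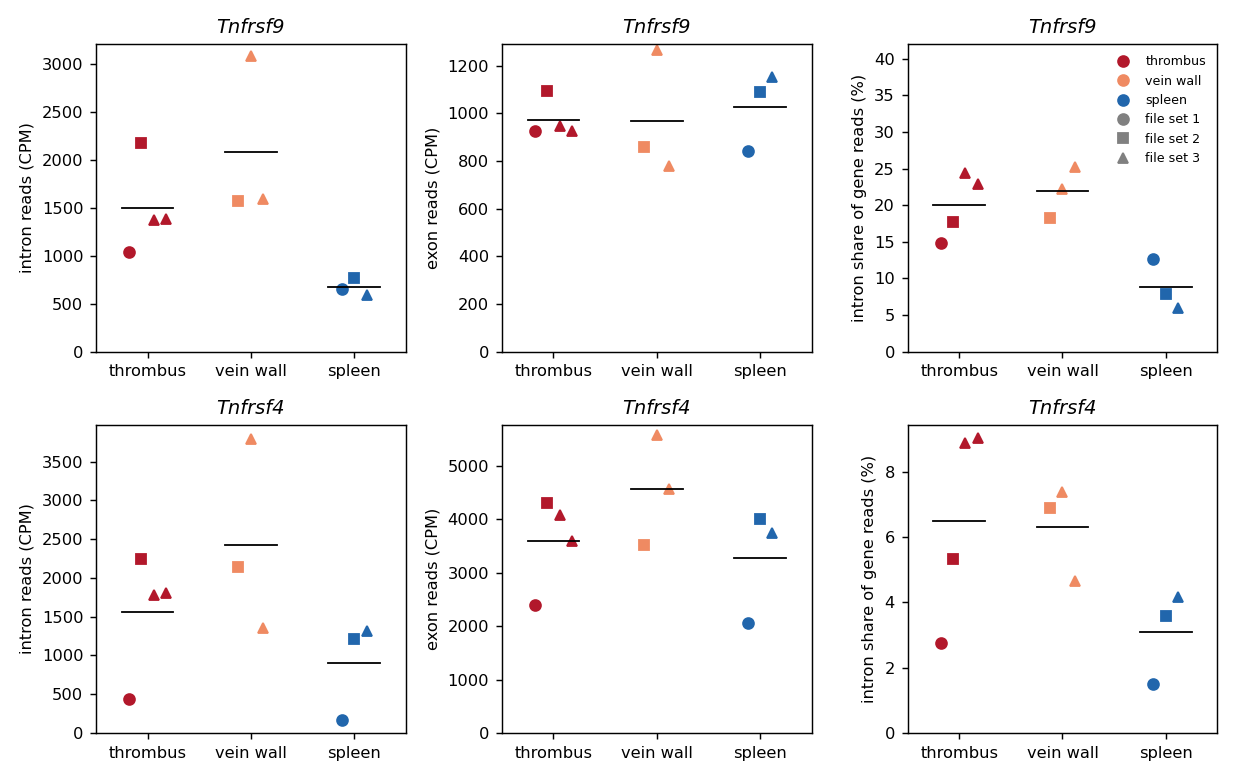
Intron reads (CPM of all intron reads), exon reads (CPM) and the share of gene reads in introns (%) for Tnfrsf9 (top) and Tnfrsf4 (bottom) in each sample, with tissue means as black lines. Tnfrsf9 intron reads in the 3 spleen samples sit between 594.6 and 768.5 CPM, below all thrombus and vein wall samples, while its exon reads overlap.

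RefSeq gives Tnfrsf9 2 start sites, at positions 150920155 and 150927999 of chromosome 4, and the windows around them are shown because of the intron reads described above. Window 1 lies at chr4:150919905-150920204 and window 2 at chr4:150927749-150928048, on the plus strand of GRCm38.p6, with matches to the NF-kB consensus and to TGANTCA in capitals.
Tnfrsf9 window 1: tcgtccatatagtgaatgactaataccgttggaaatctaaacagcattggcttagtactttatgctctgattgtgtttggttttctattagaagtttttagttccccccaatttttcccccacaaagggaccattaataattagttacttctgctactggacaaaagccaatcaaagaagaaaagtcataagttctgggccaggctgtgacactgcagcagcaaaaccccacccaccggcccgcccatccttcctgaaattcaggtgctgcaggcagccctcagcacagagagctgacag
Tnfrsf9 window 2: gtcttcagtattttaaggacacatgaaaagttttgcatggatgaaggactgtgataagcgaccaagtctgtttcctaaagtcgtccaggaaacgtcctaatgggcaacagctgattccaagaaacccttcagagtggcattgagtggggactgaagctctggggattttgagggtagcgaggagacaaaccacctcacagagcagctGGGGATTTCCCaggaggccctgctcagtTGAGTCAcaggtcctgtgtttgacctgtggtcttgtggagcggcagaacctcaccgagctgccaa
Window 1 held neither motif. Window 2 held 2 NF-kB matches that overlap each other, at bases -43 to -33 counted with the start site as 0, and an AP-1 match at bases -15 to -9. A window with both motifs made up 0.539% of all 32851, and among the other members Tnfrsf25 had NF-kB matches and Fas an AP-1 match. These are matches of letters in the reference and say nothing about binding in these cells.

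Tnfrsf4 introns went the same way in vein wall. Intron reads were 2141, 3789 and 1348 CPM in vein wall, all above the 168, 1218 and 1314 CPM of spleen, as in 6.61% of all genes. The margin between vein wall 3-4 and spleen 3-4 was small, and the 168 CPM came from set 1, which held no vein wall sample. Within sets 2 and 3 vein wall was higher by 0.813 and 0.967 on the log2 scale. Thrombus had 438.9, 2242, 1778 and 1800 CPM and overlapped with spleen, although within sets 1, 2 and 3 it was higher by 1.386, 0.88 and 0.445. The log2 fold change was 1.43 ± 0.71 for vein wall and 0.80 ± 0.66 for thrombus over spleen (edgeR adjusted p = 0.789 and 0.824), and 1.07 ± 0.36 and 0.84 ± 0.33 with file set as covariate (unadjusted p = 0.0121 and 0.0248, adjusted 0.517 and 0.631). No other member of the 9 tested was without overlap between tissues by intron reads; lower in every thrombus or every vein wall sample than in spleen were 4.4% and 6.6% of all genes, and thrombus lay above or below every vein wall sample in 2.5% and 2.31%.

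Cd27, whose ligand CD70 sits on activated lymphocytes and dendritic cells, was the member whose exon reads separated thrombus from spleen. They were 481.4, 565.6, 496.8 and 489.8 CPM in thrombus, 599.8, 607.6 and 492 CPM in vein wall and 601.9, 840.1 and 601.2 CPM in spleen. The highest thrombus sample lay below the lowest spleen sample, by a small margin, as it did for 2.5% of all genes tested. The log2 fold change was -0.42 ± 0.28 (edgeR adjusted p = 1.0), and -0.39 ± 0.19 with file set as covariate (unadjusted p = 0.058, adjusted 0.762). Thrombus was lower than spleen within each set, by log2 differences of -0.32, -0.57 and -0.28. Vein wall overlapped with spleen (-0.27 ± 0.30, adjusted p = 0.966). No other member separated 2 tissues by exon reads, where every vein wall sample lay below every spleen sample in 6.51% of all genes, and thrombus lay above or below every vein wall sample in 2.34% and 1.49%. In sets 1, 2 and 3 at most 16.0% of the Cd27 reads in a library were unique, with Vamp1 or E130112N10Rik on the other strand.

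Among the receptors for TNF itself, Tnfrsf1b encodes TNFR2, which supports Treg survival and expansion. Its exon reads were 330.6, 104.8, 288.7 and 391.4 CPM in thrombus, 169.9, 182.8 and 251.9 CPM in vein wall and 330.4, 157.5 and 232.8 CPM in spleen. Samples of set 2 were the lowest of each tissue, and the tissues overlapped, with log2 fold changes of 0.22 ± 0.40 and -0.25 ± 0.43 over spleen (edgeR adjusted p = 1.0 and 0.981). Within sets the thrombus difference had both signs, at 0.00, -0.59 and 0.55. Tnfrsf1a, the gene of TNFR1, which most cell types express, had 27.05, 18.6, 7.863 and 6.244 CPM in thrombus, 20.94, 12.04 and 34.65 CPM in vein wall and 27.18, 20.1 and 7.82 CPM in spleen. Within sets 1, 2 and 3 its log2 difference between thrombus and spleen was -0.01, -0.11 and -0.15, and that between vein wall and spleen was 0.06 in set 2 and 1.578 in set 3. The fitted log2 fold change of vein wall over spleen was 0.30 ± 0.73 with tissue alone and 1.09 ± 0.70 with file set (edgeR adjusted p = 0.988 and 0.774).

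Tnfrsf25 encodes DR3, the receptor of TL1A, through which Treg can be made to proliferate in mice. It had 103.2, 53.82, 76.4 and 119.3 CPM in thrombus, 63.26, 138 and 75.56 CPM in vein wall and 53.93, 58.25 and 80.01 CPM in spleen. The 3 highest values were outside the spleen, yet the tissues overlapped, with log2 fold changes of 0.46 ± 0.40 and 0.53 ± 0.43 (edgeR adjusted p = 1.0 and 0.963). Fas, the death receptor that binds Fas ligand, had 111.1, 250.4, 82.57 and 115.7 CPM in thrombus, 223.3, 182.1 and 122.3 CPM in vein wall and 134.7, 197.7 and 108 CPM in spleen. The highest sample of each of thrombus, vein wall and spleen came from set 2, and log2 fold changes were -0.07 ± 0.40 and 0.26 ± 0.42 (adjusted p = 1.0 and 0.981).

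Tnfrsf14 and Ltbr had the lowest levels of the members. Ltbr was at the edge of detection, while Tnfrsf14 varied widely, between 3 and 236 reads in a library. Tnfrsf14 encodes HVEM, which binds LIGHT and, as a ligand in turn, the inhibitory receptor BTLA. It had 0.8455, 1.18, 2.125 and 3.634 CPM in thrombus, 3.246, 1.62 and 9.145 CPM in vein wall and 0.2112, 12.72 and 2.563 CPM in spleen, of which spleen 1 rested on 3 reads. Ltbr encodes the lymphotoxin beta receptor, known mainly from stromal and myeloid cells. Its reads numbered 43, 0, 1 and 0 in thrombus 1 to 4, 0 and 18 in vein wall 1 and 2, 0 in vein wall 3-4, 0 in spleen 1 and 2, and 45 and 13 in the libraries of spleen 3-4. A count of 0 allowed up to 0.28 CPM in thrombus 4 and up to 0.0752 CPM in vein wall 3-4. As in any bulk library, a few cells with Ltbr and a low level in many cells cannot be told apart.

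Other genes of the pathway were counted from lists of receptors, ligands, adaptors and NF-kB genes. Of 18 further receptors of the superfamily 10 had enough reads to test and 0 passed in any comparison. Of all genes 0.146%, 0.112% and 0.0% passed with tissue alone. The median log2 fold change of the 10 was 0.9 for thrombus and 1.1 for vein wall over spleen, beside 0.03 and -0.01 for all genes. With tissue alone 8 and 9 of the 10 were above 0, and with file set 7 and 7, with medians of 0.83 and 1.23. The list holds genes with few spleen reads, such as Tnfrsf23 at 0.2816, 0.6467 and 0.05205 CPM in spleen 1, 2 and 3-4. Among those with a mean of at least 10 CPM over all samples, the largest changes were 1.95 ± 0.86 and 1.73 ± 0.89 on the log2 scale for Tnfrsf13c, the BAFF receptor of B cells, and 1.90 ± 0.82 and 1.71 ± 0.85 for Tnfrsf12a, the TWEAK receptor Fn14, for thrombus and vein wall over spleen. The adjusted p in edgeR was 1.0 for both in thrombus and 0.921 and 0.909 in vein wall. Tnfrsf13c was highest in vein wall 1, thrombus 4 and thrombus 2, at 38.76, 37.18 and 26.52 CPM. The sum over 7 B and plasma cell markers was 1280, 202 and 948 CPM in these samples, against 159 to 464 CPM elsewhere. The part of such cells in the result was not tested. Of 21 adaptors and regulators all were tested and 0 passed, beside the same shares of all genes. The largest changes were in Tnfaip3, the NF-kB inhibitor A20, and in thrombus also in Birc3, the ubiquitin ligase cIAP2 (0.94 ± 0.35). For Tnfaip3 they were 1.74 ± 1.09 in thrombus and 1.30 ± 1.13 in vein wall with tissue alone. With file set they were 3.07 ± 0.63 and 3.42 ± 0.70 (edgeR adjusted p = 0.144 and 0.148).

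Of 10 ligands 9 were tested; Tnfsf18, the ligand of GITR, had 0 reads in all 12 libraries. Tnfsf4, the ligand of OX40, is made mainly by antigen-presenting cells. It had 179, 67, 168 and 0 exon reads in thrombus 1 to 4, 69, 96, 702 and 623 in vein wall 1 to 4, and 1 read in the 4 spleen libraries together. Tnfsf4 was thus found in all vein wall samples and in all thrombus samples but thrombus 4, and hardly at all in spleen. Relative to the summed TMM library sizes, 414 reads in thrombus against 1 in spleen gave a ratio of 851 (95% exact interval 152 to 33697), and 1490 reads in vein wall against 1 gave 2203 (395 to 87060), both for counting error only. Most vein wall reads came from the near-duplicates 3 and 4. That ratio thus leans on vein wall 3-4, at 33.2 CPM against 4.391 and 5.184 CPM in vein wall 1 and 2. The edgeR adjusted p was 0.104 for thrombus and 0.0831 for vein wall over spleen with tissue alone, and 0.0462 and 0.0405 with file set as covariate, where 0.456% and 0.413% of all genes passed. With 12 separate libraries and the replicate number as a block it was 0.0293 and 0.0179, and without the block 0.0177 and 0.00819, with the near-duplicates counted separately. The samples with the most Tnfsf4 were vein wall 3-4 and thrombus 3, at 33.2 and 17.85 CPM, whose dendritic cell sums were 2420 and 1620 CPM, while thrombus 2 and vein wall 1, with 11000 and 12000 CPM of these markers, had 3.764 and 4.391 CPM of Tnfsf4; the part of such cells in the result was not tested. Among ligands with a mean of at least 10 CPM the largest changes over spleen were those of Fasl in thrombus (0.87 ± 0.59) and Tnfsf14 in vein wall (-1.74 ± 0.92), with edgeR adjusted p of 1.0 and 0.925.

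Of 10 NF-kB genes tested 0 passed with tissue alone, where 0.146% and 0.112% of all genes passed for thrombus and vein wall over spleen. With file set as covariate 2 of them, Rel and Nfkbia, rose in thrombus and in vein wall, beside 0.456% and 0.413% of all genes. Rel encodes c-Rel, an NF-kB subunit needed for Treg development, and had 265.9, 211.6, 222.6 and 268.2 CPM in thrombus, 168.7, 175.6 and 276.3 CPM in vein wall and 118.3, 30.93 and 64.18 CPM in spleen. Nfkbia encodes the inhibitor IkBa, itself a target of NF-kB, and had 2673, 2929, 2890 and 2025 CPM in thrombus, 2779, 2844 and 2373 CPM in vein wall and 1427, 1307 and 1317 CPM in spleen. In both genes each thrombus and each vein wall sample lay above each spleen sample, as did 2.5% of all genes in thrombus and 6.75% in vein wall. With tissue alone the log2 fold changes of Rel were 1.77 ± 0.41 and 1.54 ± 0.43 (edgeR adjusted p = 0.17 and 0.405), and with file set 1.96 ± 0.31 and 1.88 ± 0.35 (adjusted p = 0.00307 and 0.0147). Those of Nfkbia were 0.96 ± 0.28 and 0.98 ± 0.30 with tissue alone (adjusted p = 0.547 and 0.498), and 0.98 ± 0.18 and 1.02 ± 0.21 with file set (adjusted p = 0.0167 and 0.0301). With the near-duplicate libraries counted separately and the replicate number as a block, the adjusted p was 0.0113 and 0.0192 for Rel and 0.0158 and 0.0209 for Nfkbia; without the block it was 0.0259 and 0.0356 for Rel and 0.0601 and 0.0568 for Nfkbia. Over the whole list the median log2 fold change was 0.29 in thrombus and 0.01 in vein wall with tissue alone, beside 0.03 and -0.01 for all genes, with 7 and 5 of the 10 genes above 0. Cd69, the gene of the sorting marker, had 406.7, 822.1, 519 and 606.1 CPM in thrombus, 882.2, 640.8 and 745.4 CPM in vein wall and 253.3, 349 and 241.3 CPM in spleen. Each thrombus and each vein wall sample thus lay above each spleen sample although all cells were gated as CD69+, as did 2.5% and 6.75% of all genes. The part of Cd69+ gating and Cd69 level in the change of Rel and Nfkbia was not tested.

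**Figure D5:**
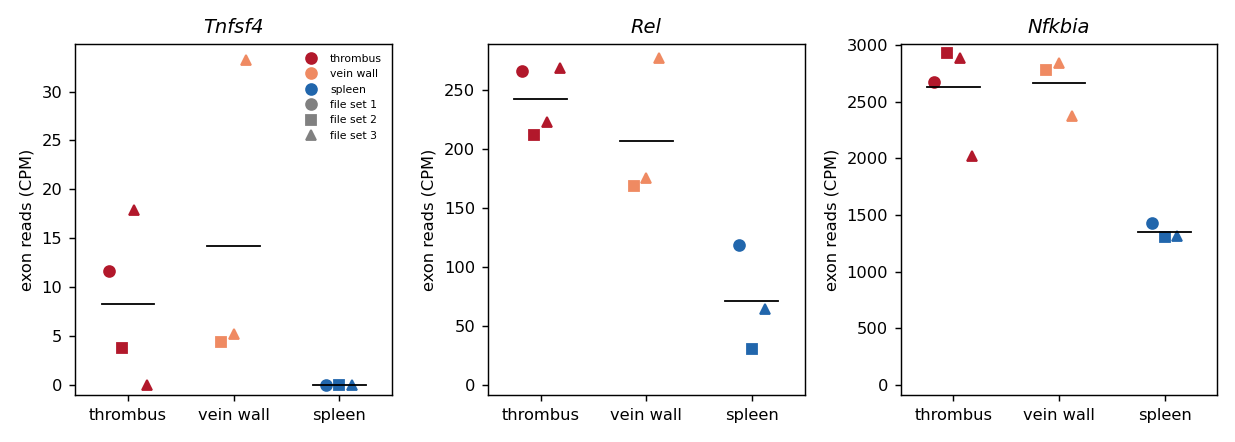
Exon reads (CPM) of Tnfsf4, Rel and Nfkbia in each sample, with tissue means as black lines and symbols for file sets. Spleen samples lie near 0 for Tnfsf4 and below every thrombus and vein wall sample for Rel and Nfkbia, and thrombus 4 has no Tnfsf4 read.

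Genes with the pattern most like a receptor were sought among 8063 genes with a mean of at least 10 CPM, by Pearson's r of log2 CPM over the 10 samples after subtracting each set's mean. This is a description only, since the highest of 8063 values is high by construction. For Tnfrsf4 they were Ube2w, Hsd11b1 and Nudcd2 (r of 0.943, 0.934 and 0.925), for Tnfrsf18 Xcl1, BC017158 and Tmem29 (0.936, 0.893 and 0.885) and for Tnfrsf9 Mettl4, Psmc4 and Zfp277 (0.981, 0.974 and 0.95). Tnfrsf4 and Tnfrsf18, with a set-centred r of 0.758, were not among each other's 3 nearest genes. For Cd27 they were Aig1, Zmym3 and Ik (0.956, 0.942 and 0.931), for Tnfrsf1b Akap8, Polr2a and Eef2 (0.98, 0.979 and 0.97), for Fas Nudt6, Leprotl1 and Apoo (0.983, 0.97 and 0.964), and for Tnfrsf1a Sod2, Srp9 and Smndc1 (0.927, 0.923 and 0.913).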

How the data were processed

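Sorted Treg of thrombus, vein wall and spleen were grouped by the labels' tissue and experiment number. RNA (2 ng) was copied into full-length cDNA with 12 amplification cycles and 1 ng of it made into Nextera XT libraries, which keep no strand, per the labels' protocols. The genome build was GRCm38 per the submitters' processing notes, and the aligner and counter were not given in the sources used here. Deposited counts per gene are total exon reads (used here), unique exon reads and intron reads, and per the file headers the total includes reads with several matches (13.6% to 21.8% of exon reads). RPKM was recomputed from these counts, exon length and TMM library sizes, in place of the deposited RPKM columns planned for, whose decimal commas were not used.

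Genes were joined over 3 file sets (Ensembl ID for sets 1 and 3, name and position for set 2), which kept 91.8% to 95.9% of exon reads; exon length agreed within 10% for 6582 of 20731 genes. Spleen 3 and 4, and vein wall 3 and 4, gave a chi-square statistic per gene of 3.96 and 2.56, against 97 to 356 for the other 16 replicate pairs, and were summed. Exon reads were tested with edgeR 4.0.16 (quasi-likelihood, TMM, filterByExpr, 10 samples in 1 fit, tissue as the factor, R 4.3.3), with Benjamini-Hochberg adjustment over 11621 genes; the steps were tested on simulated data. Correlations used log2 of CPM plus 0.5 with 100000 permutations, and permutation tests were two-sided. Counts of 0 were given a limit of 3 reads per sample, and the interval of the Tnfsf4 read ratio covers counting error only, while those of fold changes come from edgeR and include the spread between samples.

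Alternatives were the file set as covariate, unique reads, 12 separate libraries with and without the replicate number as a block, DESeq2 1.42.0, DESeq2 size factors, no filter, genes of like exon length, and each sample left out. Over the 4 thrombus and spleen pairs of the same experiment number, the correlation of deviations from tissue means was 0.107 to 0.579. All 4 lay within a file set, and spleen 3 and 4 are near-duplicates. Pairs of different numbers in set 3 gave 0.13 (spleen 3, thrombus 4) and 0.203 (spleen 4, thrombus 3). A pairing by number and a shared file set thus cannot be told apart. Between vein wall and spleen that correlation was -0.147 to 0.058, and between thrombus and vein wall -0.062 to 0.307. In each of these comparisons only 2 of the 4 pairs lay within a file set, so the check cannot decide whether the numbers mark a pairing. Pairs of different numbers in set 2 gave 0.489 (thrombus 2, vein wall 1) and 0.268 (spleen 2, vein wall 1), above all pairs of the same number in those 2 comparisons. In set 3 such pairs gave -0.035 to 0.296 for thrombus and 0.031 to 0.131 for spleen with vein wall. The members and gene lists were chosen with earlier results of these data known. All members were named; of the other lists, genes past the threshold with or without file set as covariate, and otherwise among the 3 largest changes with a mean of at least 10 CPM. The genes most like Tnfrsf25 in pattern are not reported here.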

Additional observations from a re-analysis of the deposited data

Results flagged for a closer look

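In 3 of 20 tests of the members' 4 thrombus samples, 1 sample stood far from the other 3 (Dixon's test at 95%). For normally distributed values chance gives about 1 in 20. That rate does not hold for counts near 0, such as Ltbr exon reads (43, 0, 1 and 0) and Tnfrsf14 intron reads (3, 18, 0 and 0), and the tests share samples. An excess over chance was therefore not shown. Thrombus 2 had 1092 CPM of Tnfrsf9 exon reads, against 926.2 to 947 CPM in the other 3, with a gap of 0.875 of the range. Thrombus 1 had 2.797 CPM of Ltbr exon reads, against at most 0.1063 CPM in the others (0.962 of the range). Thrombus 2 had 9.352 CPM of Tnfrsf14 intron reads, against at most 1.256 CPM in the others (0.866 of the range). Thrombus 2 was also the sample with the most dendritic cell and macrophage marker reads among the thrombus samples, at 11000 and 1760 CPM; their part in these values was not tested.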

How the results depend on the processing

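By exon reads 0 members were called in each comparison under each alternative run. Counts over all genes moved. For thrombus over spleen 17 genes passed with tissue alone, 53 with file set as covariate, 35 with 12 libraries and no block, 52 with the replicate block, 105 with DESeq2, 80 with no filter, 11 with exon length within 10% and 49 with unique reads and file set. For vein wall over spleen the counts were 13, then 48, 51, 65, 120 and 66 in the first 5 of these, 36 with unique reads and file set and 7 with unique reads alone. For thrombus over vein wall 0 genes passed, 10 with DESeq2 and 2 with no filter. Leaving out a sample gave 6 to 34 calls for thrombus over spleen, 5 to 28 for vein wall over spleen and 0 to 1 for thrombus over vein wall. The lowest were without spleen 2 (6 and 5) and spleen 3-4 (8 and 6), the highest without spleen 1 (34 and 28), and the 1 call came without thrombus 2. By intron reads 1 member, Tnfrsf9, passed for vein wall over spleen with the replicate block. The rank correlation between level orders by total and by unique reads was 0.964 in vein wall and spleen and 0.927 in thrombus.

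Directions turned only in values that no fit called. With unique reads these were -0.076 for Tnfrsf9 in thrombus over vein wall (-0.03 with file set), and -0.26 (-0.01 with file set) and -0.12 for Tnfrsf18 in thrombus and vein wall over spleen, with an SE of 1.06 for Tnfrsf18 in thrombus over spleen with tissue alone. With no filter Tnfrsf9 was -0.043 in thrombus over vein wall. With file set as covariate, thrombus over vein wall was 0.001 for Tnfrsf18, -1.39 for Ltbr (-1.38 with unique reads) and 0.13 for the Tnfrsf4 intron to exon ratio, and Ltbr was -1.07 for thrombus over spleen (-1.04 with unique reads). Without and with the replicate block, Tnfrsf14 was 0.31 and 0.95 and Ltbr -0.544 and -2.998 for vein wall over spleen, and Tnfrsf25 0.017 and 0.024 and Nfkbia 0.039 and 0.034 for thrombus over vein wall. Fas was 0.034 without the block and Ltbr -1.35 with the replicate block for thrombus over spleen, and Tnfrsf14 was 0.013 for vein wall over spleen with unique reads and file set. The cause of these turns was not tested. With 12 separate libraries Rel and Tnfsf4 passed in thrombus and vein wall over spleen with and without the replicate block, and Nfkbia with the block alone; no member's exon reads passed in either.

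Leaving out a sample gave these ranges where a direction turned. For thrombus over spleen, Tnfrsf1a was -0.75 to 0.10, Tnfrsf4 -0.11 to 0.34, Tnfrsf9 -0.21 to 0.01, Tnfrsf14 -1.98 to 0.50, Tnfrsf18 -0.18 to 0.35 and Fas -0.51 to 0.23. For vein wall over spleen, Tnfrsf1a was -0.15 to 0.70, Tnfrsf1b -0.449 to 0.047, Tnfrsf9 -0.309 to 0.045, Tnfrsf14 -1.09 to 1.77, Tnfrsf18 -0.01 to 0.52 and Ltbr -5.68 to 5.55. For thrombus over vein wall, Tnfrsf9 was -0.13 to 0.24, Tnfrsf18 -0.27 to 0.012, Tnfrsf25 -0.29 to 0.33, Nfkbia -0.098 to 0.088 and Tnfsf4 -1.47 to 0.79. Ltbr and Tnfrsf14 had few reads, at most 45 and 236 in a library, and varied widely between samples of a tissue.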
